A study of Mus musculus with 16 samples.

Results

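LC-HFSCs are the CD34+/α6-integrin+ stem cells of the hair follicle bulge, sorted from mouse skin in late catagen, when they are quiescent. All peaks of the 3 LC-HFSC lists are described here in relation to each other, chosen by population and by no measured value. They number 18041 of the 219698 peaks in the 12 lists of the series, 14718 of them for histone H3 trimethylated on lysine 4 (H3K4me3), 1909 for lysine 27 (H3K27me3) and 1414 for lysine 9 (H3K9me3). The study mapped the 3 marks by chromatin immunoprecipitation and sequencing in this population and in 3 others. LC-HFSCs came from wild-type CD1 x FVB mice at postnatal day (PD) 38 to 44, which the labels give as male, and nLC-HFSCs are the CD34−/α6-integrin+ cells, mostly of epidermis and lower outer root sheath, sorted at the same age. EA-HFSCs and nEA-HFSCs are the corresponding sorts of early anagen, PD 22 to 25, from the same kind of mice, and no population carried a mutation or treatment. Chromatin came from pools of 15 to 20 mice and was cut to single nucleosomes with micrococcal nuclease. The authors combined replicates before they called peaks against IgG, 1 sample of which belongs to each of the 4 populations. Every mark thus has a single list in LC-HFSCs, with no replicate spread, and no test was run. Intervals in brackets are 95% Wilson intervals, which cover counting error only, and neighbouring peaks are not independent.

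H3K4me3 is deposited by the Set1 and MLL complexes and marks the starts of active genes and CpG-rich promoters in general. H3K27me3 is the product of Polycomb repressive complex 2 and lies over silent developmental genes, and its coincidence with H3K4me3 at such genes is called bivalency. H3K9me3, made by enzymes such as Setdb1 and the Suv39h proteins, belongs to heterochromatin, to transposon-derived repeats and to clusters of zinc finger genes.

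The sorted population was first checked against gene lists for the cell types that a skin sort could hold, counting a mark when a peak lay within 3000 bp of the annotated start of a protein-coding gene. Among the bulge stem cell markers, 21 of 24 had H3K4me3 (87.5%, against 53.9% of all genes). None had H3K27me3 or H3K9me3, which says little for 24 genes, since 3.39% and 0.295% of all genes had them. Score, the authors' measure of a peak, is 10 times the negative log10 of its p-value and ranks peaks within a list. It was 1735 for Cd34, a sorting marker, and 1496 for Krt15, a keratin of bulge cells, and Sox9, a factor that bulge stem cells need, had 1079. Itga6, the gene of the other sorting marker, α6-integrin, had no peak at the annotated start. Nfib and Runx1 had none either. Against 53.9% of all genes, H3K4me3 was found at 1 of 14 leukocyte markers, 2 of 10 melanocyte markers and 2 of 8 endothelial markers. It was also found at 3 of 10 dermal fibroblast markers and 4 of 14 gene entries for suprabasal epidermis. Ptprc, Tyr, Pecam1 and Cdh5, which define leukocytes, melanocytes and endothelium, had none. The highest H3K4me3 score on those 5 lists was 370.7, for Mitf, and the part of such cells in the results was not tested.

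The 4 stretches of 300 bases that follow show the kind of DNA on which each list rests. They were taken from the highest-ranked locus with H3K4me3 alone, H3K27me3 alone, and both, at the middle of the peak or of the overlap. For H3K9me3 the second-ranked locus is shown, a choice made after the sequences were seen. They are the plus strand of NCBIM37, the assembly that is also called mm9, and CpG is in capitals.
H3K4me3 alone, Zfp36l1, chr12:81214195-81214494: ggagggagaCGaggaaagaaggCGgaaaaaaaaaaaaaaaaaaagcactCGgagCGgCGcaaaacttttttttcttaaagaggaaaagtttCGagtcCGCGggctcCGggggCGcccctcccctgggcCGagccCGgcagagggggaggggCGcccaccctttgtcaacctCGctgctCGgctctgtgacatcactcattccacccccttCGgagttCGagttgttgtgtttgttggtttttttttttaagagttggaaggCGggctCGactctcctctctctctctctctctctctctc
H3K27me3 alone, Rfx4, chr10:84218930-84219229: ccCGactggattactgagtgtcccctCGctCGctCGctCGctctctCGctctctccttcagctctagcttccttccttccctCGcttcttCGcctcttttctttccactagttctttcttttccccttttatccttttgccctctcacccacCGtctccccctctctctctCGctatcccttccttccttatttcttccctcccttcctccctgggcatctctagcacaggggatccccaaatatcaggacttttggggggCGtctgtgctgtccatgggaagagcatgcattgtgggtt
H3K4me3 and H3K27me3, Dlx5, chr6:6828866-6829165: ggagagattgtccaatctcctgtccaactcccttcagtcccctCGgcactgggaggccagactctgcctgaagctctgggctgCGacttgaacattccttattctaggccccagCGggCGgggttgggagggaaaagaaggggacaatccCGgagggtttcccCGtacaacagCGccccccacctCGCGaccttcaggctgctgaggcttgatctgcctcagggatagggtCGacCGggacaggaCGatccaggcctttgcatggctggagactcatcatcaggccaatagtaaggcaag
H3K9me3 alone, near Gm3604, chr13:62468481-62468780: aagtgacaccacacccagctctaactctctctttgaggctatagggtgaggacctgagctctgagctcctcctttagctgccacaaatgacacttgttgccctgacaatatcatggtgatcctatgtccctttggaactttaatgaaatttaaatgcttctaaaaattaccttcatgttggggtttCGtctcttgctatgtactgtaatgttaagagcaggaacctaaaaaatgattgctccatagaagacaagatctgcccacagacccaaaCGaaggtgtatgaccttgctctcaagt
The stretch at Zfp36l1, a gene for an mRNA decay factor, holds 19 CpG and is 54.3% G and C. The one at Rfx4, a transcription factor gene of the nervous system, holds 11 CpG at the same 54.3%, and the one at Dlx5, a homeobox gene, holds 12 at 59.7%. Over their central 1000 bp, loci with H3K27me3 alone had a lower median of G and C, 48%, than the Rfx4 stretch. CpG observed over expected was 0.591 in the Rfx4 stretch and 0.449 in the Dlx5 stretch. The medians over 1000 bp were in the reverse order, 0.264 for loci with H3K27me3 alone and 0.644 for loci with both marks. The H3K9me3 stretch, beside the predicted gene Gm3604, holds 2 CpG at 43.0%.

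In LC-HFSCs the 3 marks lay largely apart, and the only combination with more than a few members was H3K4me3 with H3K27me3. An H3K4me3 peak overlapped 266 of the 1909 H3K27me3 peaks by at least 1 bp, 13.9% (12.5 to 15.6%), where H3K4me3 peaks covered 1.47% of the gap-free genome. A share of peaks met cannot be set directly against a share of bases, and 5.29% of the bases under H3K27me3 lay under H3K4me3. In the other direction, 243 of the 14718 H3K4me3 peaks, 1.65% (1.46 to 1.87%), met an H3K27me3 peak, and 1.04% of the bases under H3K4me3 lay under H3K27me3, which covered 0.289% of the genome. H3K9me3 peaks met H3K4me3 in 5 of 1414 cases, 0.354% (0.151 to 0.825%). Of the bases under H3K9me3, 0.429% lay under H3K4me3, below the 1.47% of the genome that H3K4me3 covered. H3K9me3 and H3K27me3 met in 16 peaks of each list, 1.13% (0.698 to 1.83%) of the H3K9me3 peaks and 0.838% (0.517 to 1.36%) of the H3K27me3 peaks. Counted in bases, 391 kb lay under both H3K4me3 and H3K27me3, 25.3 kb under both H3K27me3 and H3K9me3, and 11.8 kb under both H3K4me3 and H3K9me3. In a list from pooled cells, marks that share a nucleosome or a cell and marks that lie in different cells of the sort cannot be told apart. By the study's methods, the reads of single replicates fell short of saturating the H3K27me3 and H3K9me3 peak calls, and replicates were pooled for that reason. Whether the pooled reads sufficed is not given in the sources used here, so that a missing peak does not show a missing mark.

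Merging overlapping or touching peaks of the 3 lists gave 17750 loci, and 260 of them, 1.46%, carried more than 1 mark. H3K4me3 was alone at 14470 loci, 81.5% (80.9 to 82.1%), H3K27me3 alone at 1627 and H3K9me3 alone at 1393. The combination of H3K4me3 and H3K27me3 made up 240 loci, 1.35% (1.19 to 1.53%), followed by H3K27me3 with H3K9me3 at 15 and H3K4me3 with H3K9me3 at 5. No locus held all 3, which with 0 of 17750 allows a share of up to 0.0216% at the upper Wilson bound. The 240 loci with H3K4me3 and H3K27me3 covered 1.42 Mb, and their median width was 4807 bp (quartiles 3530 and 6985 bp). Loci with H3K4me3 alone had a median of 2309 bp and those with H3K27me3 alone 2899 bp. A locus with several peaks spans their union and is wide for that reason alone. The widest of the 240 reached 24499 bp, and 34 were wider than 10 kb.

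**Figure D1:**
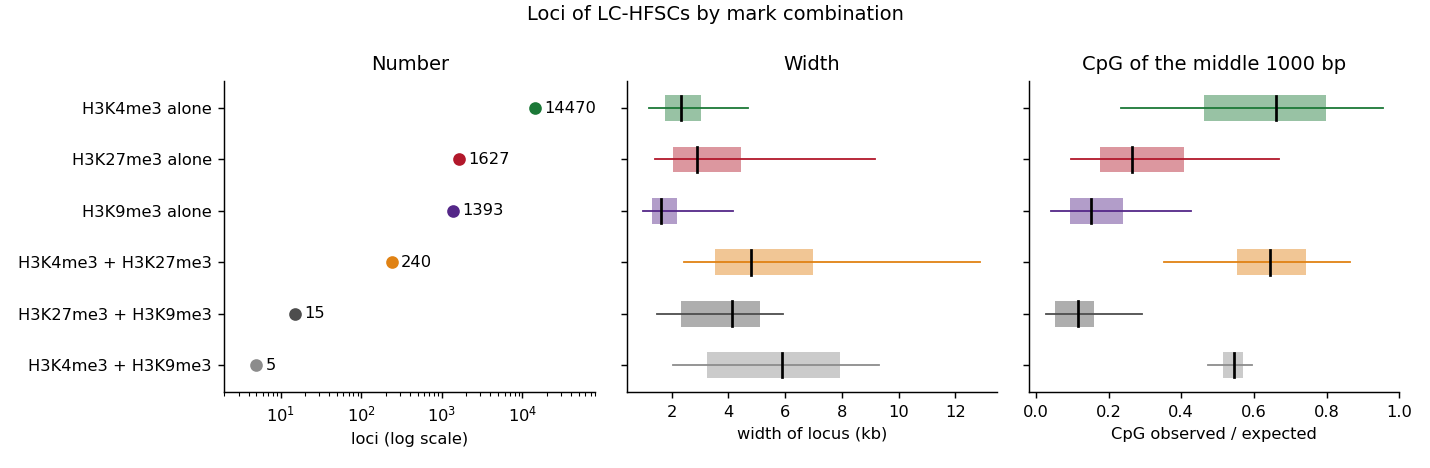
Loci of LC-HFSCs by mark combination: their number on a log scale, their width in kb, and CpG observed over expected for the central 1000 bp of the locus or overlap. Bars run from the lower to the upper quartile with the median as a black line, and thin lines from the 5th to the 95th percentile. Loci with H3K4me3 and H3K27me3 have a median CpG value of 0.644 at the overlap and a median width of 4807 bp. Loci with H3K4me3 alone have 0.660 at the middle of the peak, where H3K4me3 peaks that meet H3K27me3 have 0.732.

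How the peaks lay on each other was read from the 269 overlapping pairs of an H3K4me3 and an H3K27me3 peak. The peaks were staggered in 197 pairs (73.2%), the H3K4me3 peak lay inside the H3K27me3 peak in 68 (25.3%), and the reverse held in 4. The median overlap was 1347 bp, which was 34.9% of the H3K27me3 peak and 56.4% of the H3K4me3 peak. Of the 266 H3K27me3 peaks, 263 met exactly 1 H3K4me3 peak, and 26 H3K4me3 peaks met 2 H3K27me3 peaks. The H3K27me3 peaks that met H3K4me3 had a median width of 3492 bp against 2899 bp for the others, a ratio of 1.20, and among 5 width classes of equal size the share with H3K4me3 was lowest, 9.16% (6.66 to 12.5%), in the narrowest and highest, 18.6% (15.0 to 22.9%), in the widest. That ratio turned to 0.834 when at least 50% of the H3K27me3 peak had to be covered, and a wider peak has more bases on which another can lie, whose part in the difference was not tested. H3K4me3 peaks with and without H3K27me3 were nearly equally wide, with medians of 2267 and 2309 bp. They differed in rank, since the median score percentile was 22.04 with H3K27me3 and 50.6 without. In 5 equal classes of H3K4me3 score, from the lowest to the highest, the share with H3K27me3 was 3.74%, 2.55%, 0.951%, 0.544% and 0.476%. With only the 1414 top-scoring peaks of every list, 0.283% of the H3K27me3 peaks met H3K4me3.

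Distances were measured between the edges of neighbouring peaks, and they depend on how many peaks the other list holds. The median H3K27me3 peak lay 45.8 kb from the nearest H3K4me3 peak (quartiles 8.36 and 118 kb), and 52.4% lay within 50 kb. With the 1414 top-scoring peaks of every list this median was 489 kb. The median H3K9me3 peak lay 35.7 kb from H3K4me3 (13.9 and 133 kb). Although only 0.717% of H3K9me3 peaks came within 1 kb of H3K4me3, 17.0% came within 10 kb and 56.8% within 50 kb. For H3K27me3, 16.4% were within 1 kb and 26.2% within 10 kb. From an H3K9me3 peak to the nearest H3K27me3 peak the median was 865 kb, and in the other direction it was 887 kb. From an H3K4me3 peak the median was 542 kb to H3K27me3 and 1032 kb to H3K9me3.

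H3K4me3 alone lay at the starts of 11819 of the 22367 protein-coding genes (52.8%). H3K27me3 alone lay at 528 (2.36%), and 226 combined these marks without H3K9me3 (1.01%). H3K9me3 alone was found at 56 starts (0.250%), and 9728 starts (43.5%) had no mark. The remaining 10 genes had H3K9me3 together with another mark and are named further down. Some neighbouring genes share a peak: 20 of the 226 genes with both marks and 57 of the 528 with H3K27me3 alone shared their H3K27me3 peak with another gene of the same class. In the 226 genes the peaks themselves overlapped at 181, and at the other 45 they lay apart by a median of 434 bp inside the window. H3K4me3 peaks at the 226 starts had a median score percentile of 23.1 and a median width of 2258 bp, against 61.9 and 2567 bp at starts with H3K4me3 alone. The H3K27me3 peaks at these starts had a median percentile of 59.3, against 63.3 at starts with H3K27me3 alone, and the medians of width were 3438 and 3757 bp.

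Along the 226 genes, H3K4me3 cover was narrow around the start, and H3K27me3 cover was broad and highest inside the gene. H3K4me3 covered 85.8% of them at the start itself and at most 90.3%, at 500 bp downstream. H3K27me3 covered 51.8% at the start, 65.5% at 1000 bp downstream, its highest value, and 61.5% at 2000 bp, where H3K4me3 covered 23.5%. Upstream at 2000 bp, H3K27me3 covered 44.2% and H3K4me3 9.29%. Of the 181 genes whose peaks overlapped, the middle of the H3K27me3 peak lay downstream of that of the H3K4me3 peak in 106, 58.6% (51.3 to 65.5%), and upstream in 75. Genes with H3K27me3 alone also had their highest cover downstream, 73.1% at 900 bp against 61.7% at the start and 59.8% at 1000 bp upstream.

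**Figure D2:**
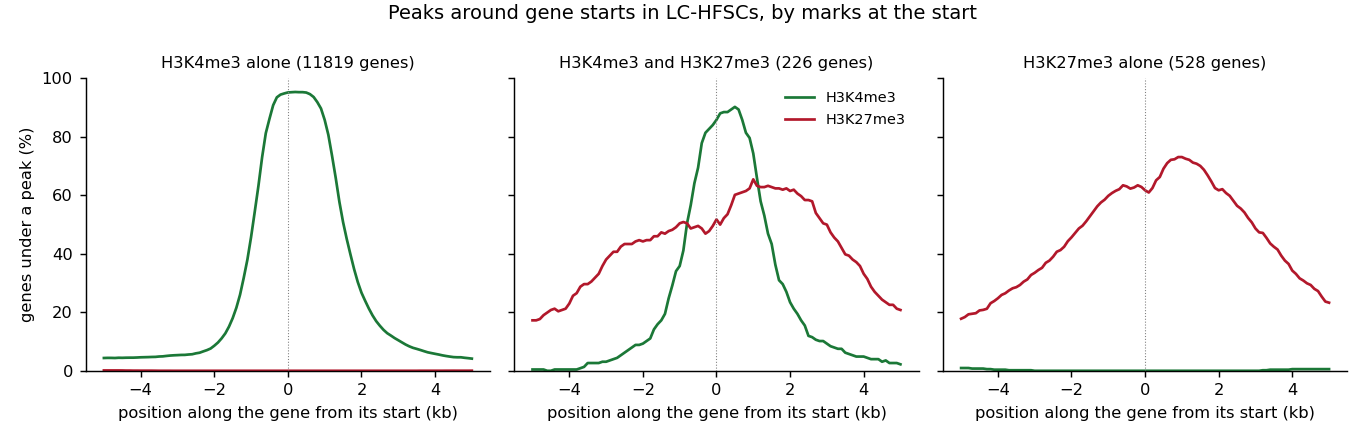
Percent of genes under an H3K4me3 (green) or H3K27me3 (red) peak by position along the gene, in kb from its start, for the 3 classes of genes in LC-HFSCs. By the definition of the classes the absent mark is at 0 close to the start; in the 226 genes with both, the H3K4me3 curve is narrow with a top of 90.3% and the H3K27me3 curve is broad, with a top of 65.5% at 1 kb downstream.

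The 15 genes with both marks whose weaker peak ranked highest were Dlx5, Mkx, Zdhhc17, Cadm3, Pcdh10, Aatf, Prss16, Pdia5, Ccno, Sfmbt2, En2, Mast4, Unc5c, Adcy8 and Igf2bp2. Dlx5, a homeobox gene of limb and jaw development, had an H3K4me3 peak of score 534.67 and width 3756 bp at its start, on chromosome 6 from 6828805 to 6832560. Its H3K27me3 peak, of score 151.97 and width 11041 bp, lay downstream of it along the gene and beyond, from 6818186 to 6829226. The 2 peaks met at their edges, where the Dlx5 stretch printed above was read. At Pcdh10, a protocadherin gene, the H3K4me3 peak (score 392.58) lay wholly inside the H3K27me3 peak (score 203.11, width 5289 bp). Mkx, a homeobox gene of tendon, showed the same nesting, with scores of 462.45 and 243.13. En2, a homeobox gene of the midbrain, had scores of 275.04 and 226.97. Sfmbt2, which codes for a Polycomb group protein, had 299.36 and 72.68. Not every start in the class belongs to the gene under the H3K27me3 peak: Aatf, a gene for an apoptosis-antagonizing factor, met with its H3K4me3 peak an H3K27me3 peak of 21627 bp that is also the one at the start of the neighbouring Lhx1, a LIM homeobox gene which has H3K27me3 alone. Bub3, a spindle checkpoint gene named here after its values were seen, likewise had in its window the H3K27me3 peak of the homeobox genes Hmx2 and Hmx3. Far from gene starts, both marks reached high scores at a locus on chromosome 6 from 30121956 to 30132490 (461.44 for H3K4me3 and 194.04 for H3K27me3), whose nearest protein-coding start, that of Ube2h, is 122049 bp away.

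Genes of cell cycle arrest and of signalling were among those with both marks. Cdkn2a and Cdkn2b, the neighbouring genes of the p16/p19 and p15 inhibitors of cyclin-dependent kinases, had both, and were 2 of 7 such inhibitor genes (28.6%, against 1.01% of all genes). At Cdkn2a the scores were 121.61 for H3K4me3 and 199.1 for H3K27me3, and the H3K27me3 peak spanned 11601 bp. A second one of 10568 bp ran from there to the H3K4me3 peak of Cdkn2b, where the scores were 242.79 and 50.53. Shh, the hedgehog ligand that drives hair growth, had a low H3K4me3 peak (score 61.39) inside an H3K27me3 peak of 11116 bp (242.58), and the hedgehog antagonist gene Hhip had scores of 127.15 and 56. In the Wnt pathway, both marks lay at the ligand gene Wnt1 (105.56 and 131.02) and at the secreted inhibitor genes Frzb (193.85 and 83.55) and Wif1 (155.9 and 64.08, with 651 bp between the peaks), while 13 of 19 Wnt ligand genes had H3K4me3 alone (68.4%, against 52.8% of all genes). The Notch ligand gene Dll4 (156.25 and 95.84) and the Notch target Hey2 (84.52 and 101.68) had both, as 2 of 18 genes on the Notch list (11.1%) and 2 of 14 on the hedgehog list (14.3%) did, against 1.01% of all genes. None of the 58 genes for BMP, activin and TGF-beta ligands, receptors and antagonists had both, and 35 had H3K4me3 alone (60.3%), both near the shares of all genes (1.01% and 52.8%). H3K27me3 alone was at 4 of them (6.90%, against 2.36%), namely Bmp8b, Chrdl2, Gdf6 and Gdf7. Of the 27 gene entries for FGF ligands and receptors, 12 had H3K4me3 alone (44.4%, against 52.8% of all genes) and 6 had H3K27me3 alone (22.2%, against 2.36%), among them Fgf5, whose product ends the growth phase of hair, with a score of 51.25, and Fgf8 with 151.74.

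The 8 highest-scoring entries with H3K27me3 alone were Rfx4 (567.59), Robo3, an axon guidance receptor (523.11), Tbr1, a T-box gene of the cortex (433.16), Tmem132e (387.5), Alx1, which is listed under 2 gene entries (339.16), Ebf3 (333.86) and Hoxd11 (330.28). A union of 7 lists of developmental transcription factors held 306 gene entries, or 1.37% of all genes. H3K27me3 alone was at 91 of them, 29.7% (24.9 to 35.1%, against 2.36% of all genes), and both marks at 33, 10.8% (7.78 to 14.8%, against 1.01%). Read the other way, these factors were 17.2% of the genes with H3K27me3 alone and 14.6% of those with both marks, but 0.702% of those with H3K4me3 alone. None of the 306 had H3K9me3, which is near the 0.295% of all genes that had it. Among the lineage basic helix-loop-helix genes, 16 of 37 had H3K27me3 alone, such as Hand2 of the heart and limb (307.2), Bhlhe22 (248.31) and Twist1 of mesenchyme (221.3), and both marks lay, among others, at the neural factor genes Atoh1 (55.08 and 283.23) and Neurog2 (64.72 and 47.97). Of 145 entries for homeobox and Pax genes outside the Hox clusters, 54 had H3K27me3 alone and 16 had both. Those with both include Msx1 (216.55 and 79.47), En2, Otx1 (197.37 and 221.09) and Six4 (183.47 and 72.63). Of 43 forkhead genes, 9 had H3K27me3 alone, with Foxa1 at 168.04, and 6 had both, among them Foxi3 of the hair placode (122.11 and 47.46). Of 16 T-box genes 6 had H3K27me3 alone, while Sox genes had it once in 19 entries, at Sox17 of the endoderm (170.88). Tbx3, a T-box gene of limb and skin appendages, had a score of 383.46 for H3K4me3 beside 54.71 for H3K27me3. Both Gata genes with a mark, Gata3 of the inner root sheath (84.92 and 51.32) and Gata6 (80.15 and 198.07), had H3K4me3 and H3K27me3, and the other 4 had no mark. Voltage-gated ion channel genes had H3K27me3 alone at 16 of 130 entries (12.3%) and both marks at 6 (4.62%). Of 14 neuronal genes, 4 had H3K27me3 alone, with Gad2, a gene of GABA synthesis, at 132.46, 2 had both marks, none had H3K4me3 alone and 8 (57.1%, against 43.5% of all genes) had no mark. No leukocyte, melanocyte, endothelial or suprabasal marker had H3K27me3 alone. Lists of 8 to 14 entries say little about a state that 2.36% of all genes had. H3K27me3 alone was at 3 of 10 fibroblast markers (30%), and 1 of 8 endothelial markers had it with H3K4me3 (12.5%, against 1.01% of all genes).

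Genes of general cell functions mostly had H3K4me3 alone. The 8 highest scores with H3K4me3 alone were at Zfp36l1 (2594), Tgif1 (2191), Dusp6 (2043), Slc38a2 (1940.1), Pcdh7 (1909), Fzd7 (1877), Lphn2 (1836) and Id2 (1820.4), of which Fzd7 is a Wnt receptor gene and Id2 a target of BMP signalling. H3K4me3 alone marked 39 of 40 cell cycle and DNA replication genes (97.5%), 79 of 81 ribosomal protein genes (97.5%), 40 of 43 genes for histone methylation enzymes and Polycomb proteins (93.0%) and 57 of 67 replication-dependent histone genes (85.1%), where all genes had 52.8%. Of the study's list of genes upregulated in the bulge, chosen by the authors on expression arrays, 193 of 220 entries had H3K4me3 alone (87.7%). Both marks lay at 4 of them (1.82%, near the 1.01% of all genes): Crabp1, Fyn, Hoxd8 and Mfge8. The peaks overlapped at Hoxd8 and lay 297 bp apart at Crabp1, 502 bp at Fyn and 1214 bp at Mfge8. Of the 99 genes that the same arrays placed lower in the bulge, 72 had H3K4me3 alone (72.7%) and 26 had no mark (26.3%, against 43.5% of all genes). H3K27me3 alone was at Ets1 (a score of 60.71), which is 1.01% of the list, against 2.36% of all genes. The constantly expressed genes had H3K4me3 alone at 400 of 422 entries (94.8%). None had H3K27me3 or H3K9me3, against 3.39% and 0.295% of all genes. Keratin genes had no mark at 38 of 46 starts, keratin-associated protein genes at 45 of 46 and olfactory receptor genes at 1110 of 1113, where all genes had 43.5%. Of 40 imprinted genes, which are expressed from 1 parental copy, 15 had H3K4me3 alone (37.5%, against 52.8% of all genes). H3K27me3 alone was at 4 (10%, against 2.36%), and Rasgrf1 had both (2.5%, against 1.01%). Krt8, a keratin of simple epithelia, had H3K27me3 alone (83.99), while Krt5 and Krt14 of the basal layer had H3K4me3 (1663 and 437.1).

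**Figure D3:**
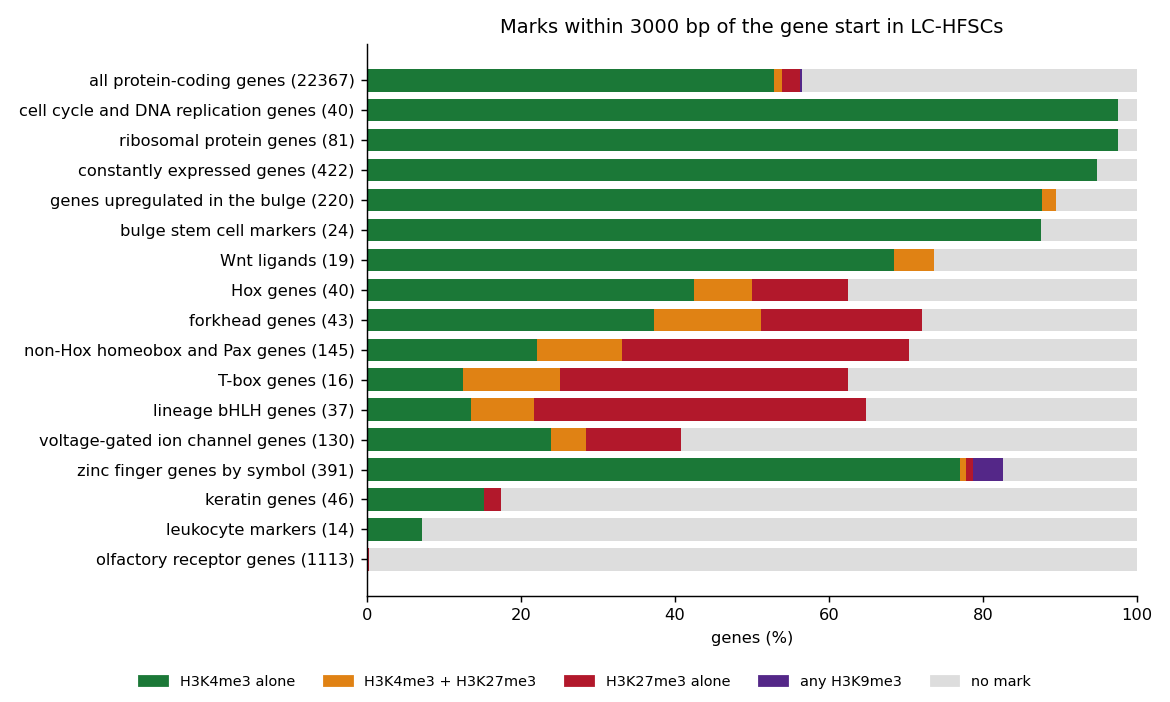
Percent of the genes of a list with each mark combination within 3000 bp of the start in LC-HFSCs, with all 22367 protein-coding genes at the top and the number of gene entries in brackets. Red and orange, for H3K27me3 alone and with H3K4me3, take up more of the developmental transcription factor lists (29.7% and 10.8% over their union) than of all genes (2.36% and 1.01%).

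The Hox genes, which encode position along the body, are given by cluster, with 9 to 12 entries in each, beside the 52.8% of all genes with H3K4me3 alone and the 43.5% with no mark. In HoxA, 8 of 12 entries had H3K4me3 alone, Hoxa13 had H3K27me3 alone and 3 had no mark. HoxB had H3K4me3 alone at 4 of 10 genes and no mark at 6, and HoxC had it at 5 of 9, with Hoxc13, a gene of the hair shaft programme, at a score of 1040, and H3K27me3 at Hoxc12 (125.01). In HoxD no gene had H3K4me3 alone: Hoxd11, Hoxd12 and Hoxd13 had H3K27me3 alone, Hoxd1, Hoxd3 and Hoxd8 had both, and Hoxd4, Hoxd9 and Hoxd10 had none. Over the cluster and its flanks, 7 H3K27me3 peaks covered 49.4 kb and 3 H3K4me3 peaks covered 8.03 kb. The H3K27me3 peak over Hoxd11 to Hoxd13 had a score of 330.28, and a second one with a score of 125.01 ended just before it, upstream of Hoxd13. Hoxd3 and Hoxd8 shared 1 H3K27me3 peak of score 62.41 between them. The 3 H3K4me3 peaks had scores of 70.1 (Hoxd1), 87.51 (Hoxd3) and 97.89 (Hoxd8), and the peaks at Hoxd1 and Hoxd8 overlapped H3K27me3. The lone H3K9me3 peak in the region, of score 40.72, overlapped an H3K27me3 peak upstream of Hoxd13. In the other populations, Hoxd13 had H3K27me3 and H3K9me3 in EA-HFSCs and nLC-HFSCs and no mark in nEA-HFSCs.

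**Figure D4:**
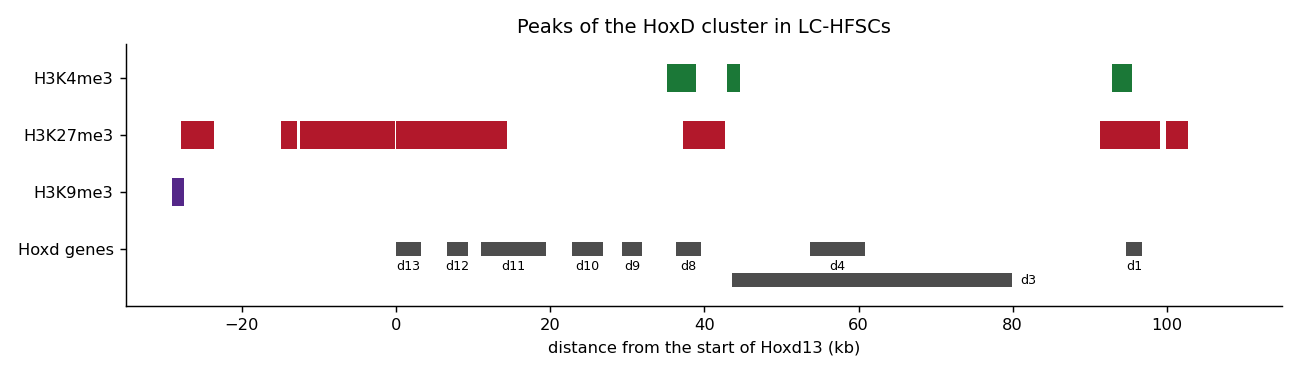
Peaks of the 3 marks in the HoxD cluster of LC-HFSCs, in kb from the start of Hoxd13, with the Hoxd genes as dark bars below. H3K27me3 covers Hoxd13 to Hoxd11 and the regions of Hoxd8 and Hoxd1, H3K4me3 peaks lie at Hoxd8, Hoxd3 and Hoxd1, and the only H3K9me3 peak lies beside the cluster.

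H3K9me3 reached few gene starts, among them those of predicted genes and of zinc finger genes, many of which encode repressors of transposons. The 8 highest-scoring starts with H3K9me3 alone were Gm3604 (399.97), Gm8290 (296.77), Zfp873 (241.46), Slc25a2 (191.17), Zfp936 (181.43), Zfp958 (176), Gm10130 (168.08) and Gm6712 (161.76). Zinc finger genes named by symbol were 14 of the 56 (of 391 such genes, against 0.250% of all genes with H3K9me3 alone), and clustered protocadherin genes, which give neurons their identity, were 5: Pcdhb2, Pcdhb18, Pcdhb19, Pcdhb22 and Pcdhgc5. These 5 were 20.8% of the 24 clustered protocadherins, against 0.250% of all genes. The remaining 19 had no mark (79.2%, against 43.5% of all genes). Genes of these families resemble each other closely, and reads may have been assigned to the wrong copy.

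Of the 391 zinc finger genes, 71 combined H3K4me3 at the start with H3K9me3 further along the gene. Beyond 3000 bp from the start, 301 of the 22367 protein-coding genes had an H3K9me3 peak on their body, among them 82 of the 391 zinc finger genes. Of these 82, 71 had H3K4me3 at the start, 86.6% (77.6 to 92.3%), an interval that includes the 78.0% of all 391. Over all 301 genes the share was 68.4% (63.0 to 73.4%), against 53.9% of all protein-coding genes. The middle of the H3K9me3 peak in the 71 genes lay at a median of 82.9% of the gene length (quartiles 67.4 and 89.5%), 13.6 kb from the start, and in 47 of them, 66.2% (54.6 to 76.1%), it lay past 75% of the length. In the 135 other genes with H3K4me3 at the start the median was 57.5%, and 45 genes, 33.3% (25.9 to 41.6%), had it past 75%. Their peaks lay at a median of 39.15 kb from the start. The first 3000 bp were left out, which removes a larger part of a short gene and shifts its peaks towards the end. The part of this in the difference was not tested. Examples are Zfp369 (H3K4me3 score 169.61, H3K9me3 score 306.42, 16.0 kb from the start), Zfp35 (109.86 and 218, 13.8 kb), Zfp952 (344.11 and 216.4, 10.4 kb) and Zfp81 (279.19 and 201.39, 24.7 kb). In all, 148 of the 1343 H3K9me3 peaks on placed chromosomes lay on zinc finger genes, 11.02% (9.46 to 12.8%), and these genes span 0.413% of the gap-free genome. The corresponding shares were 2.24% for H3K4me3 and 0.735% for H3K27me3. Chromosomes 13 and 17 held 164 and 153 of the loci with H3K9me3 alone.

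**Figure D5:**
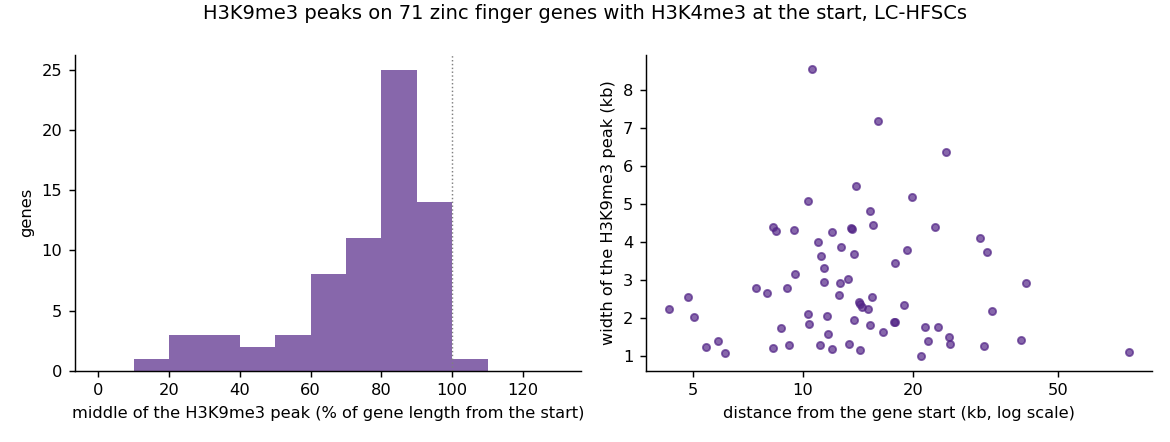
H3K9me3 peaks on the 71 zinc finger genes that have H3K4me3 at the start in LC-HFSCs. Left, the number of genes by the position of the middle of the peak, in percent of gene length from the start, with the gene end as a dotted line; right, peak width in kb against distance from the start in kb on a log scale. Only peaks that reach beyond 3000 bp from the start are counted, which leaves out a larger part of a short gene. Their median is at 82.9% of the length.

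The rare combinations with H3K9me3 were followed one by one. H3K4me3 and H3K9me3 lay within 3000 bp of the start of Orc2, a gene of the origin recognition complex (395.29 and 156.07), Zfp458 (399.15 and 66.02), 2210016F16Rik (342.12 and 48.8), Taf7, a subunit gene of TFIID (152.95 and 191.17, the latter from the peak at Slc25a2), Heatr6 (206.42 and 45.29) and Ftsjd1 (173.9 and 42.74). The peaks overlapped each other at 5 loci elsewhere, 4 of them on placed chromosomes and none of these over the start of a gene. The H3K9me3 peaks at these 5 loci had a median score percentile of 98.1 in their list and the H3K4me3 peaks one of 10.04. H3K27me3 and H3K9me3 lay at the starts of Cd70, a ligand of the tumour necrosis factor family (67.26 and 77.15), Sgsm1 (72.65 and 45.83) and Tcfl5 (73.6 and 41.22). Zranb2, a gene for a splicing factor, was the only one with all 3 marks in its window. Its H3K4me3 peak (542.36) lay on the start, an H3K27me3 peak (160.55) lay 1660 bp from it, and an H3K9me3 peak (48.41) overlapped the H3K27me3 peak.

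CpG content and closeness to gene starts were not used in the choice of peaks. Both were higher at loci with H3K4me3, alone or with H3K27me3, than at loci with H3K27me3 alone or H3K9me3 alone. Loci with H3K4me3 alone and with both marks had similar shares within 3000 bp of a gene start. Their contrast in CpG depended on where it was read. CpG observed over expected was first read in the central 1000 bp of a locus, or of the overlap where 2 marks met. Its median was 0.660 with H3K4me3 alone and 0.644 with H3K4me3 and H3K27me3. It was 0.264 with H3K27me3 alone, 0.151 with H3K9me3 alone and 0.116 with H3K27me3 and H3K9me3. The share of CpG-rich loci, those with at least 50% G and C and a value of at least 0.6, was 56.5% (55.7 to 57.3%), 60.4% (54.1 to 66.4%), 8.07% (6.84 to 9.49%) and 0.151% (0.0414 to 0.549%) in the first 4. Read at the middle of the H3K4me3 peak instead of the overlap, 81.5% (76.1 to 85.9%) of the 243 H3K4me3 peaks with H3K27me3 were CpG-rich and the median was 0.732, against 56.5% (55.7 to 57.3%) and 0.660 for those without. At gene starts, H3K27me3 alone was CpG-rich more often, in 53.8% (49.5 to 58.0%) of the 528 starts, against 74.8% (68.7 to 80.0%) with both marks, 73.8% with H3K4me3 alone and 7.22% with no mark. By their middle, 24.2% (19.2 to 30.0%) of the loci with H3K4me3 and H3K27me3 and 34.4% of those with H3K4me3 alone fell in a promoter, here the 1000 bp before and the 100 bp after a transcript start, and 22.9% and 15.0% fell between genes. H3K27me3 alone was in a promoter in 8.50% and between genes in 52.1%, and H3K9me3 alone in 1.51% and 65.0%. Within 3000 bp of a gene start lay 180 of the 240 loci with H3K4me3 and H3K27me3 (69.2 to 80.1%), 73.4% of those with H3K4me3 alone, 38.5% with H3K27me3 alone and 5.44% (4.34 to 6.79%) with H3K9me3 alone.

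The other populations, whose lists are longer, had more loci with several marks: 23.6% of their loci in EA-HFSCs, 5.75% in nEA-HFSCs and 9.45% in nLC-HFSCs, against 1.46% in LC-HFSCs. Background and depth can change the length of a list and cannot be read from it, and their part was not tested. By the study's methods, LC-HFSCs had more reads than EA-HFSCs. No difference between populations was tested. The 240 LC-HFSC loci with H3K4me3 and H3K27me3 had an H3K27me3 peak in EA-HFSCs at 232, in nEA-HFSCs at 236 and in nLC-HFSCs at 238, and an H3K4me3 peak at 238, 226 and 200. An H3K9me3 peak lay at 222 of them in EA-HFSCs (92.5%), at 15 in nEA-HFSCs and at 66 in nLC-HFSCs. In EA-HFSCs such a peak also lay at 54.6% of the LC-HFSC loci with H3K4me3 alone and at 74.6% of those with H3K27me3 alone. All 15 genes named above for both marks had all 3 in EA-HFSCs, as did 206 of the whole 226 (91.2%). Exactly the 2 marks were found at 13 of the 15 in nEA-HFSCs and at 5 in nLC-HFSCs. For the 226 these counts were 197 (87.2%) and 143 (63.3%). Of the 528 genes with H3K27me3 alone in LC-HFSCs, 190 had H3K4me3 and H3K27me3 without H3K9me3 in nEA-HFSCs (36.0%, against 9.06% of all genes). In nLC-HFSCs 68 of them did (12.9%, against 4.64%), and in EA-HFSCs 15 (2.84%, against 1.60%). In EA-HFSCs 257 of the 528 (48.7%, against 6.30% of all genes) had all 3 marks. H3K27me3 with H3K9me3 was found there at 217 (41.1%, against 2.79%). The loci with H3K9me3 alone were found again as H3K9me3 in nEA-HFSCs at 1221 of 1393 (87.7%), in nLC-HFSCs at 753 (54.1%) and in EA-HFSCs at 584 (41.9%), although the EA-HFSC list of H3K9me3 is the longest of the 4.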

How the data were processed

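Peaks of H3K4me3, H3K27me3 and H3K9me3 in LC-HFSCs were analysed, with the lists of the other populations beside them; the 4 IgG samples have no list here. Per the submitters' processing notes, reads were handled with Trimmomatic 0.22, Bowtie2, HOMER and MACS on mm9. The authors pooled replicates, called peaks against IgG of the same population and deposited for each peak its position and a score, −log10 of the MACS p-value multiplied by 10. The lowest deposited scores are 50 for H3K4me3 and 40.0 and 40.1 for H3K27me3 and H3K9me3. Scores rank peaks within a list and are not compared between lists. Read depth is unknown from the lists; by the study's methods LC-HFSCs had more reads than EA-HFSCs.

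Comparisons ran in Python 3.11.15 (numpy 2.4.6, scipy 1.17.1, figures matplotlib 3.10.9), with steps tested on simulated peaks (4 of 4 settings recovered). Overlap was at least 1 bp. Genes were the 22367 protein-coding genes of GENCODE vM1 on NCBIM37, the same assembly as mm9, and positions are 1-based. On unplaced sequence there were 16, 4 and 71 peaks of the 3 lists, used in overlaps and not for genes or base composition. Ranks are score percentiles within a list. Named were, for several marks at the start, all genes up to 15, otherwise the 15 whose weakest mark ranked highest; for 1 mark, the 8 with the highest score (loci by the same rule); and members of the gene lists. The window of 3000 bp and 3 gene lists from expression arrays follow the study. The members and lists were chosen with earlier results of these data known. Alternatives were 2 score thresholds, autosomes, merged peaks, equal list lengths, a larger overlap, other windows, any transcript start and distances between middles; genes whose peaks overlap were counted as an alternative chosen after seeing the data. No test, p-value or chance placement was used. Repeat classes were not analysed here. Some results that the naming rule selects are not reported here.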

Additional observations from a re-analysis of the deposited data

How the results depend on the processing

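Of 61 alternative values for the 9 summary results, 39 stayed within the interval or within 1.5 times the count given, 20 moved and 2 changed direction. When all lists were held to a score of 50 or more, H3K4me3 met 16.2% of H3K27me3 peaks and H3K27me3 met 1.40% of H3K4me3 peaks. With 100 or more these shares were 8.39% and 0.289%, the H3K9me3 peaks that met H3K4me3 and H3K27me3 were 0% and 0.510%, the median gap from H3K27me3 to H3K4me3 was 77.9 kb, and the genes with both marks, with H3K27me3 without H3K4me3 and with H3K9me3 numbered 31, 212 and 18. With the 1414 top-scoring peaks of every list, both shares of H3K4me3 with H3K27me3 were 0.283%, no H3K9me3 peak met H3K4me3 (0%), the width ratio of H3K27me3 peaks with and without H3K4me3 turned to 0.699, the median gap was 489 kb and 2 genes had both marks; fewer H3K4me3 peaks enter this setting by construction. With at least 50% of the counted peak overlapped, the H3K27me3 share was 4.09%, the H3K4me3 share 1.15%, the H3K9me3 share with H3K4me3 0.141% and the width ratio 0.834. Genes with H3K9me3 numbered 33 with a window of 1000 bp and 113 with any transcript start, against 66. Other causes were not tested. Counting only genes whose peaks overlap, an alternative chosen after seeing the data, left 181 of 226 genes with both marks. No paired analysis was possible because there is 1 list per population and mark and the result comes from no test. Depth limits every absence, since it is not known whether the pooled reads saturated detection of H3K27me3 and H3K9me3.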
